A study of Zea mays with 24 samples.

Results

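The step from 35°C to 37°C maximum daily temperature (MDT) was examined in maize leaves at developmental stage V4, at 20 days after germination (DAG), as a direct comparison of the 3 libraries from 37°C MDT with the 3 libraries from 35°C MDT. These are 6 of the 24 libraries of the series. The members are alternative splicing (AS) events, kept where at least 2 libraries of each MDT had a value and the mean over libraries was at least 10 reads. Of 22077 events listed at V4 in 8125 genes, 6687 events in 3639 genes met both conditions. A further 403 events had the libraries but fewer reads, with 91 of them between 9 and 10 reads, and 83 of the tested events lay between 10 and 11 reads.

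All plants were of the inbred line W22, germinated at 1 common temperature and moved as seedlings into chambers with daily cycles that climbed to the MDT in the virtual morning and dropped 10°C below it at night. The first fully expanded leaf was sampled as the MDT was reached, and the submitters call the 3 libraries of a group biological replicates. The groups used here are 35°C and 37°C MDT at V4 and, for comparison, the same MDTs at V5 (27 DAG), with 3 libraries each, and the levels at 31°C and 33°C MDT are given beside them. Each MDT was run in a pair of growth chambers that the labels do not name, so an effect of a chamber and of the MDT cannot be told apart. The tables hold splicing events without gene expression values, so leaf markers could not be checked.

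A spliceosome removes introns from the pre-mRNA, and splice sites of different strength are used to different extents. Serine/arginine-rich (SR) proteins bind enhancer elements in the RNA and steer the choice between competing sites, and transcripts of SR genes are themselves spliced in several ways. Warmth is known to shift many such choices in plants. An event has an inclusion isoform, which keeps the variable segment, and a skipping isoform, which lacks it. The inclusion level ψ is the share of the inclusion isoform, once reads are scaled by the effective lengths of both isoforms. In intron retention (IR) the segment is the intron, in exon skipping (ES) an exon, in alternative 5′ or 3′ splice sites (A5SS, A3SS) the stretch between 2 sites, and in mutually exclusive exons (MXE) 1 of 2 exons is kept.

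Few events passed the test between 35°C and 37°C MDT. A total of 9 events in 7 genes were called differentially spliced (DAS), 0.135% of the events tested, by a false discovery rate (FDR) up to 0.01 together with mean ψ values more than 5 percentage points apart. Of these, 4 were higher at 37°C MDT (0.0598%) and 5 were lower (0.0748%). Among the lower ones, 3 are MXE events, where the sign depends on which exon is counted. The calls depend on the test: the quasi-likelihood test of edgeR called 1 event and limma on log ratios called 0, with 732 and 664 events at an unadjusted p under 0.05. They also depend on single libraries, since 4 events were called when 35°C replicate 3 was left out, against 14 and 18 when replicate 1 or 2 at 37°C was left out. In the quasi-binomial test used here, 743 events (11.1%) had an unadjusted p under 0.05, and 35 events (0.523%) passed an FDR of 0.05 with the same size of difference. The ψ values of the groups did not overlap in 1298 events (19.4%).

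**Figure D1:**
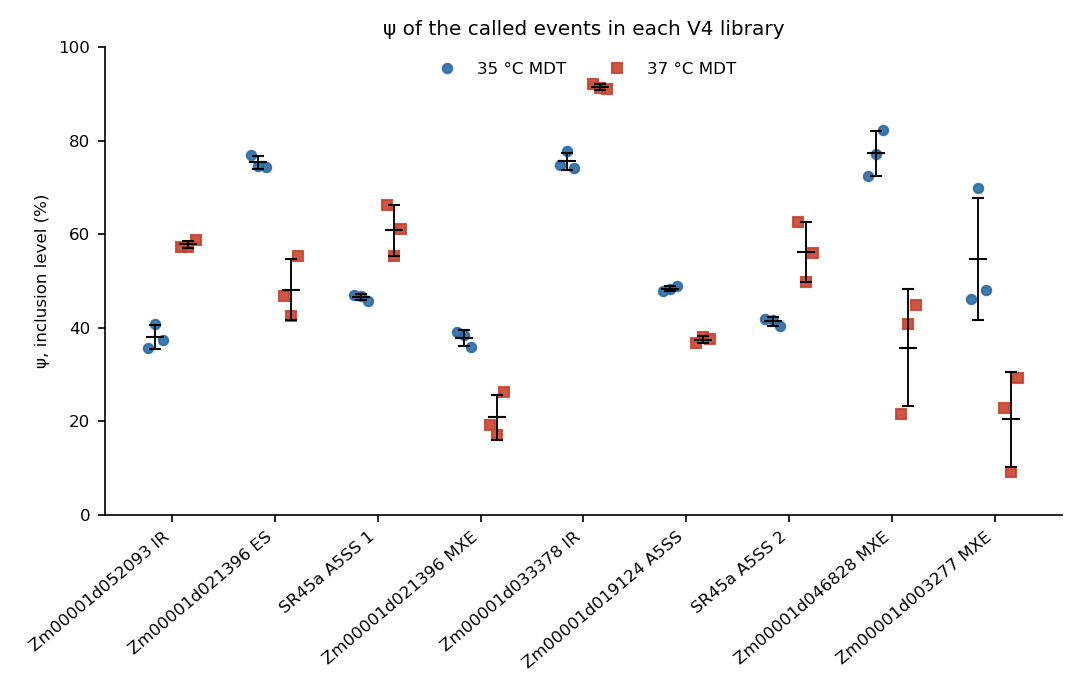
ψ in percent (vertical axis) of each of the 9 called events in the 3 libraries from 35°C MDT (circles) and the 3 from 37°C MDT (squares) at V4; the black bars are the mean ± SD. These same libraries chose the events, and in each the groups are apart, with SDs at 37°C MDT from 0.569 to 12.5 percentage points.

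The event with the lowest FDR was the retention of an intron of Zm00001d052093. Its 200-base intron (B73 RefGen_V4, chromosome 4, 179377468 to 179377667, plus strand) was retained at ψ 35.6%, 40.7% and 37.4% at 35°C MDT and 57.3%, 57.3% and 58.7% at 37°C MDT. The groups were 16.6 points apart at their nearest libraries. The mean rose from 37.9% ± 2.59 to 57.8% ± 0.808 (SD, n = 3 each), a difference of 19.9 points (95% interval 16.6 to 23.1, quasi-binomial FDR 4.36e-05). Total reads over the event differed little, with 1184 to 1268 per library at 35°C MDT and 1150 to 1215 at 37°C MDT. The mean was lower at the lower MDTs, with 23.4% ± 1.84 at 31°C and 28.9% ± 1.88 at 33°C MDT. No role is given for this gene in the sources used here.

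The other called intron was in Zm00001d033378, 1180 bases long (chromosome 1, 261047533 to 261048712, plus strand). Its ψ was 74.7%, 77.7% and 74.2% at 35°C MDT and 92.1%, 91.3% and 91% at 37°C MDT. All 3 libraries at 37°C MDT lay above those at 35°C MDT by at least 13.3 points. The mean rose by 15.9 points (95% interval 11.2 to 20.7, quasi-binomial FDR 0.0089). The spliced isoform was the rare one, with 39, 33 and 39 reads at 35°C MDT against 11, 12 and 17 at 37°C MDT. The call was lost in 4 of the 6 fits that leave out a library, where its FDR reached 0.0383.

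In Zm00001d021396, a 101-base exon (chromosome 7, 150914790 to 150914890, plus strand) was kept in fewer transcripts at 37°C MDT. Its ψ as a skipped exon was 77%, 74.6% and 74.4% at 35°C MDT and 46.7%, 42.5% and 55.2% at 37°C MDT. The highest library at 37°C MDT stayed 19.2 points below the lowest at 35°C MDT. The mean fell from 75.3% ± 1.45 to 48.1% ± 6.47, a difference of -27.2 points (95% interval -32.7 to -21.7, quasi-binomial FDR 0.000528). The inclusion reads were 826, 862 and 832 at 35°C MDT and 297, 320 and 487 at 37°C MDT, while the skipping reads were 147, 175 and 171 against 202, 258 and 236. Both isoforms thus moved in opposite directions, in raw reads. This was the event that edgeR also called (FDR 0.00425).

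The same exon was called as an MXE event, in which it alternates with a 116-base exon 409 bases downstream. That ψ fell from 37.8% ± 1.7 to 20.8% ± 4.78 (difference -17 points, 95% interval -21.9 to -12.2, quasi-binomial FDR 0.00223). Both events count the same exon, so they are not independent of each other. At lower MDTs the skipped-exon ψ was 81.7% ± 1.55 at 31°C and 76.1% ± 3.59 at 33°C MDT, so the step to 37°C MDT was the wide one at V4.

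SR45a (Zm00001d047847), a member of the SR protein family that regulates splicing, gave 2 of the called events. Both are A5SS events of 1 exon, in which a downstream 5′ splice site adds 207 bases (chromosome 9, 143197907 to 143198113, plus strand) or 210 bases (143197907 to 143198116) to the exon. The ψ of the 207-base segment was 47%, 46.7% and 45.7% at 35°C MDT and 66.2%, 55.3% and 61% at 37°C MDT. The lowest library at 37°C MDT lay 8.3 points above the highest at 35°C MDT. The mean rose by 14.4 points to 60.8% ± 5.45 (95% interval 10.1 to 18.6, quasi-binomial FDR 0.00802), and that of the 210-base segment rose by 14.8 points, from 41.3% ± 0.872 to 56.1% ± 6.45 (95% interval 10 to 19.6, FDR 0.00828). The skipping reads are the same in both events, with 515, 586 and 586 at 35°C MDT and 211, 316 and 338 at 37°C MDT, so they count as 1 change. Neither event passed in edgeR (FDR 0.213 for both) or in limma (FDR 0.555 for both), and neither was called without 35°C replicate 3 (FDR 0.0304 and 0.0313).

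A 93-base exon of SR45a (143198022 to 143198114) lies in the same stretch and shares these skipping reads. Its ψ was 10.1%, 8.5% and 7.8% at 35°C MDT and 19.1%, 16% and 14.6% at 37°C MDT, without overlap (difference 7.77 points, 95% interval 4.97 to 10.6, quasi-binomial FDR 0.0118). The lengths of all 3 segments are multiples of 3. Whether the segments hold stop codons was not examined. The study reports that SR45a isoforms made at lower MDTs have premature stop codons in the frame of the early start site. The other 6 tested events of SR45a had no unadjusted p under 0.05. One of them is an IR event with ψ near 0, at 0.8% and 1.2%.

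Along the MDTs the SR45a segment had its lowest level at 35°C MDT. At V4 the 207-base segment had a mean ψ of 71% ± 3.08 under 31°C MDT and 57.7% ± 2.44 under 33°C MDT, above the 46.5% ± 0.681 under 35°C MDT. At V5 its means from the lowest to the highest MDT were 52.3% ± 0.666, 25.4% ± 1.56, 11.4% ± 0.115 and 34.8% ± 2.97. The rise from 35°C to 37°C MDT therefore followed a fall at each step from 31°C to 35°C MDT. The level at 37°C MDT at V4 lay between those at 33°C and 31°C MDT.

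Zm00001d019124 gave the called event with the smallest difference, an A5SS event with a 28-base segment (chromosome 7, 18112706 to 18112733, plus strand). Its ψ was 47.8%, 48.3% and 48.8% at 35°C MDT and 36.7%, 38% and 37.6% at 37°C MDT. The groups were 9.8 points apart, and the SDs were 0.5 and 0.666. The mean fell by 10.9 points (interval -14.3 to -7.48, quasi-binomial FDR 0.00802). At 31°C and 33°C MDT its mean was 58.4% ± 3.6 and 53% ± 2.25, so each higher MDT of V4 had a lower mean. The call was lost without 35°C replicate 3 (FDR 0.0304).

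The remaining called events are MXE events with wide intervals. In Zm00001d046828 (chromosome 9, minus strand) ψ was 72.5%, 77.1% and 82.2% at 35°C MDT and 21.4%, 40.8% and 44.8% at 37°C MDT, from 47.7 reads per library on average. Its difference of -41.6 points (95% interval -55.4 to -27.8, quasi-binomial FDR 0.00588) was the widest among non-overlapping events with at least 20 reads in every library. At 31°C and 33°C MDT the mean ψ of this event was 64.3% ± 2.62 and 52.8% ± 28.5. The 33°C libraries ran from 23.5% to 80.4%, which reaches into both compared groups. The 2 exons, at 107486606 to 107486660 and 107714115 to 107714169, are both 55 bases long and lie 227454 bases apart. Whether they share reads as near-identical copies was not tested, and which of them the tables count as included was not settled for the minus strand.

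In Zm00001d003277 (chromosome 2, plus strand) the exons, of 195 and 108 bases, lie 9799 bases apart. Its ψ was 46.1%, 69.8% and 48.1% at 35°C MDT and 22.7%, 9.2% and 29.2% at 37°C MDT. The groups were 16.9 points apart, and the mean fell by 34.3 points (95% interval -51.7 to -16.9, FDR 0.0085). The lowest value, at 37°C replicate 2, rests on 302 reads where the other libraries had 65 to 110. The call was lost without that library, without 35°C replicate 2 and without 35°C replicate 3, with FDRs up to 0.0421. The Zm00001d046828 call was lost without 35°C replicate 2 or 3, with FDRs up to 0.0162. At 31°C and 33°C MDT the mean ψ of Zm00001d003277 was 16.8% ± 16.3 and 48.3% ± 29.8, so 37°C MDT did not have its lowest mean at V4. With the spread taken over the 33°C, 35°C and 37°C libraries, neither Zm00001d046828 nor Zm00001d003277 was called.

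**Figure D2:**
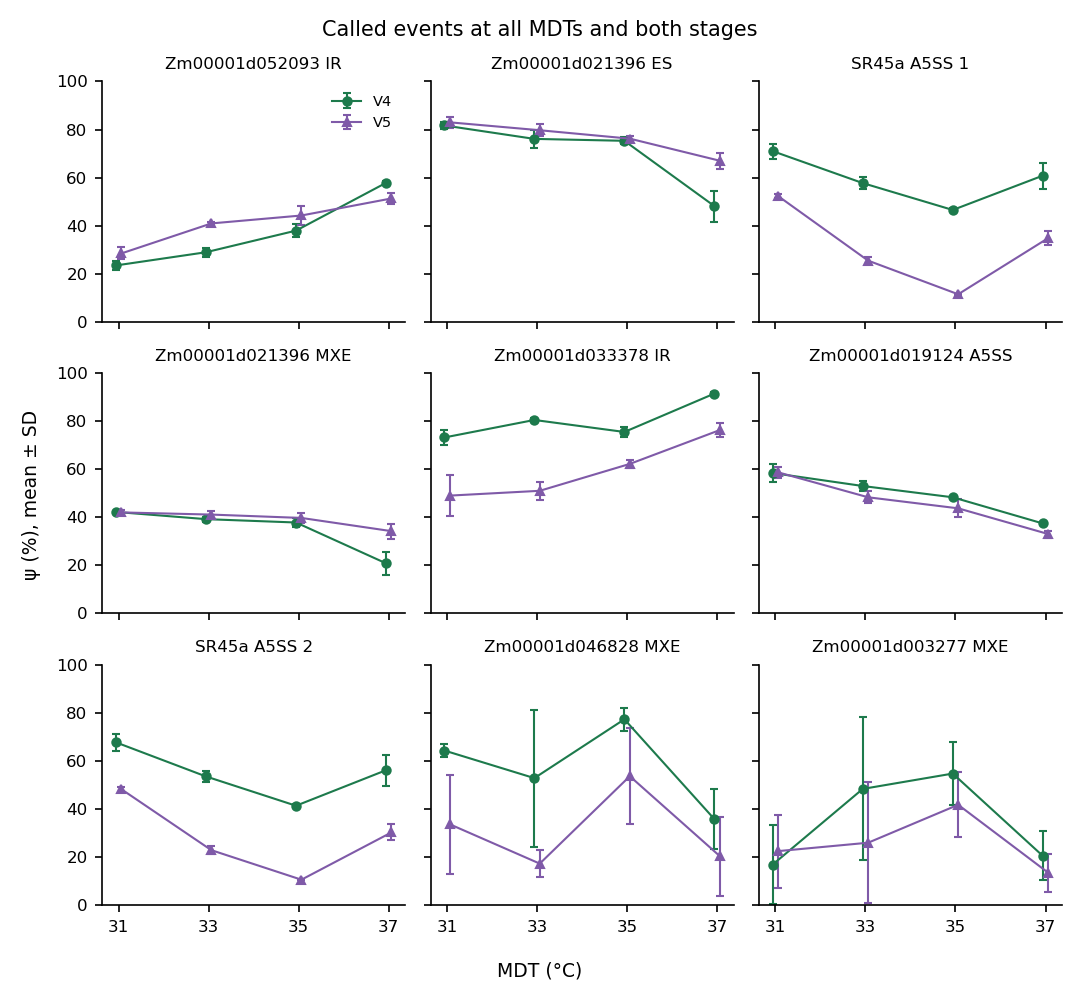
Mean ψ in percent (vertical axis) against MDT in °C (horizontal axis) for the 9 called events at V4 (circles) and V5 (triangles), joined by lines; bars are SDs over the libraries with a value, at most 3. The 35°C and 37°C points at V4 chose these events, and the SR45a events have their lowest mean at 35°C MDT at both stages.

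Most intervals of the difference were wide. The median event had 61.2 reads per library, and the median size of the difference was 3.3 points. The 95% interval of the difference lay within 5 points of 0 in 1303 events (19.5%). For most events without a call, the interval thus did not exclude a change of more than 5 points. Among the 2334 events with at least 100 reads, 8 were called (0.343%) and 1091 (46.7%) had such a narrow interval.

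**Figure D3:**
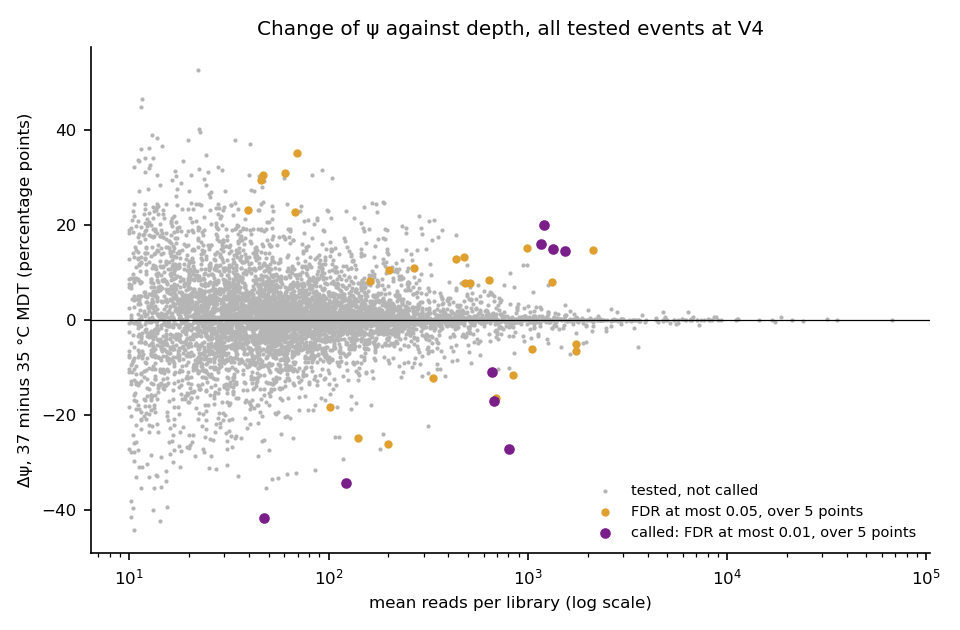
Difference of mean ψ, 37°C minus 35°C MDT, in percentage points (vertical axis) against the mean reads per library (horizontal axis, log scale) for all 6687 tested events at V4. The 9 called events include 8 with at least 100 reads, and differences near 40 points among shallow events were mostly not called.

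By type, IR had 2 called events of 1893 tested (0.106%), ES 1 of 1709 (0.0585%), A3SS 0 of 1981, A5SS 3 of 940 (0.319%) and MXE 3 of 164 (1.83%). The A3SS events had 167 unadjusted p-values under 0.05 (8.43%), the lowest share of the 5 types, and none passed an FDR of 0.05. Neither edgeR nor limma called any of them. Both called IR events were higher at 37°C MDT and all 3 called MXE events were lower. The sign of an MXE event depends on which of its 2 exons is counted as included. These lower MXE values are thus not a shared direction.

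The events with an unadjusted p under 0.05 and a difference above 5 points were not balanced in direction. For IR, 150 were higher and 67 lower at 37°C MDT, for ES 99 and 45, and for A5SS 51 and 20. For A3SS the counts were 60 and 74, and for MXE, where the sign depends on the exon counted, 9 and 15. Over all types they were 369 and 221, while the median difference over all tested events was 0.233 points. At V5 the counts for IR were 137 higher and 168 lower, and whether the stages differ in this was not tested.

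The mean ψ per library gives the direction over all events of a type, except for MXE, where the sign depends on the exon counted. Over the 1458 IR events with a value in all 6 libraries it was 32.3%, 32.23% and 32.48% at 35°C MDT and 34.35%, 32.83% and 34.08% at 37°C MDT. The groups were apart, with a difference of 1.42 points (exact permutation test, two-sided p = 0.1, n = 3 each), which is the smallest p that 3 against 3 can give. For 966 ES events the means ranged from 66.11% to 66.7% and from 67.81% to 68.41% (difference 1.51 points, or 0.802 with reads pooled over events), and for 636 A5SS events from 44.27% to 44.86% and from 45.12% to 45.98% (1.05 points), both also without overlap (exact p = 0.1). The A3SS means overlapped (difference -0.227 points, or -0.748 with pooled reads, exact p = 0.3 for both), as did those of the 116 MXE events (-0.737 points, exact p = 0.5).

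**Figure D4:**
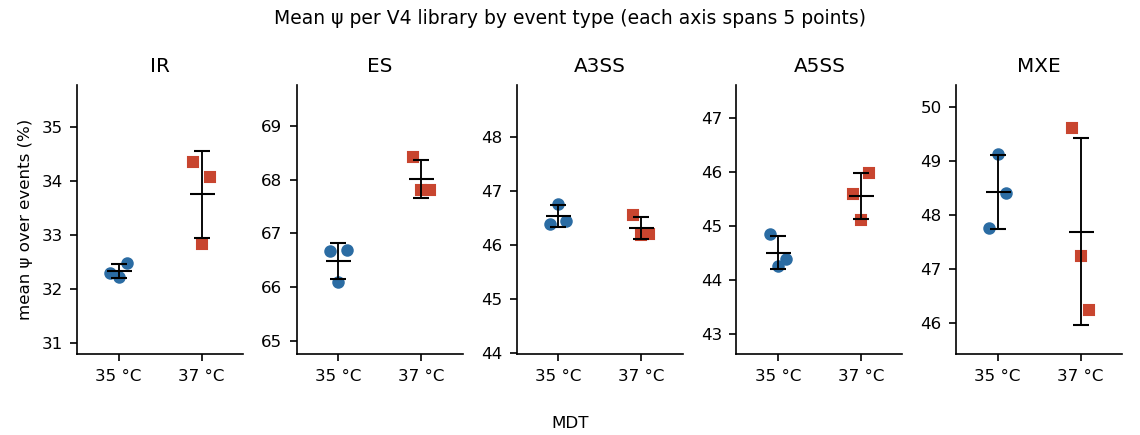
Mean ψ in percent over the events with a value in all 6 libraries (vertical axis, each spanning 5 points and not starting at 0) for each V4 library at 35°C (circles) and 37°C MDT (squares), by event type; black bars are the mean ± SD of 3 libraries. The groups are apart for IR, ES and A5SS and overlap for A3SS and MXE.

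The segments of these events are described by their lengths. The 150 introns with higher retention at 37°C MDT had a median length of 530 bases, the 67 with lower retention 246 bases, and all 1893 tested introns 314 bases. The median depth was 87.9, 55.5 and 60.8 reads in the same order, and the part of depth in this difference was not tested. The 51 A5SS segments that were higher at 37°C MDT had a median of 210 bases, against 42.5 bases for the 20 lower ones and 34.5 bases for all tested. In A3SS events the medians were 76.5 bases for the higher, 10.5 for the lower and 19 for all tested events.

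The next events in order of p, up to an FDR of 0.05, were not called. An 18-base exon of Zm00001d039076 (chromosome 6, 169624267 to 169624284) had ψ of 35.4%, 33.5% and 33.4% at 35°C MDT and 47.7%, 49.2% and 45.3% at 37°C MDT. The groups lay 9.9 points apart (difference 13.3 points, 95% interval 9.35 to 17.2, quasi-binomial FDR 0.0104). At V5 the same exon was at 47.1% and 45.7%. The change thus differed by 14.8 points between the stages (FDR of that difference 0.0402).

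Higher retention at 37°C MDT was found in introns of Zm00001d011231 (439 bases, 9.13% against 19.5%, FDR 0.0103), Zm00001d047498 (978 bases, 9.37% against 17.1%, FDR 0.0287), Zm00001d017392 (1028 bases, 15.4% against 44.9%, FDR 0.043), Zm00001d014055 (1645 bases, 9.5% against 32.7%, FDR 0.0475), Zm00001d015421 (556 bases, 19.2% against 27.6%, FDR 0.046) and Zm00001d034804 (333 bases, 9.5% against 17.7%, FDR 0.0475). In each of these 6 the groups did not overlap, which the choice by p favours and which held for 19.4% of all tested events. Retention of a 369-base intron of Zm00001d018037 was lower at 37°C MDT, at 37.5% ± 1.37 against 44% ± 1.18 (FDR 0.0397).

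Among exons, Zm00001d014091 (125 bases) had ψ of 13.9%, 10.4% and 13.8% at 35°C MDT and 43.7%, 47.9% and 37.8% at 37°C MDT (FDR 0.0118). Zm00001d025665 (92 bases) had 15.2%, 20.9% and 16.1% against 59.5%, 40.4% and 44.9% (FDR 0.0197). The groups were 23.9 and 19.5 points apart, at 46.7 and 60.5 reads per library. A 73-base exon of Zm00001d012806 had a value in 2 libraries at 35°C MDT, 4.4% and 1.8%, and in 3 at 37°C MDT, 20.8%, 19.6% and 37.1% (FDR 0.0346), and a 167-base exon of Zm00001d044101 stood at 84.3% against 95.2% (FDR 0.048).

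Exon skipping was higher at 37°C MDT in Zm00001d040855. Its 219-base exon (chromosome 3, 72171134 to 72171352) had ψ of 51.8%, 43.6% and 40.6% at 35°C MDT and 16.6%, 24.5% and 20.7% at 37°C MDT (FDR 0.0108), and a 279-base form with the same start went from a mean of 27.5% to 9.33% (FDR 0.0175). Both forms share the skipping reads. At 31°C and 33°C MDT the 219-base exon had 63.7% ± 2.12 and 45.5% ± 4.63, so 37°C MDT had the lowest mean of the 4 at V4. A 449-base exon of BGI_novel_G001488, a gene model with an identifier of the sequencing provider, was also lower, at 69.3% against 80.8% (FDR 0.0282).

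In Zm00001d016679 (chromosome 5, minus strand) 4 events passed an FDR of 0.05. The skipping reads of 3 of them are the same, 52, 46 and 51 at 35°C MDT and 23, 18 and 24 at 37°C MDT, set against segments of 176, 1235 and 3011 bases. Their ψ was 77.3% against 90.1% (FDR 0.0108), 67.3% against 82.5% (FDR 0.0175) and 67% against 81.6% (FDR 0.0286). The 1235- and 3011-base events had V4 means of 91.1% and 89.6% at 31°C MDT and 88.3% and 87.1% at 33°C MDT. At V5 both were lower at 37°C MDT, with 85.9% against 75% and 85.8% against 74.4% (FDR 0.306 and 0.34). Retention of the neighbouring 649-base intron was lower, at 20.5% ± 2.06 against 26.7% ± 0.902 (FDR 0.0415).

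Of the A5SS events at this level, a 43-base segment of Zm00001d018498 was higher at 37°C MDT (44% against 52%, FDR 0.0274). A 19-base segment of Zm00001d010172 was lower (74.5% against 62.5%, FDR 0.0319), as was a 212-base segment of Zm00001d020717 (83.6% against 67.3%, FDR 0.0389). In the last, 37°C replicate 3 stood at 56.3%, below the 70.6% and 74.9% of the other replicates.

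Of the splicing regulators that the study singled out, only SR45a had called events. The 5 genes (SR45a, SR34, SCL33, SRP and SPFcc1-like) had 31 tested events, with 2 called higher and 0 called lower (6.45%, against 0.135% over all events tested). Another count, of events with an unadjusted p under 0.05, gave 5, all higher (16.1%, against 11.1%). The 2 called events share reads, and 3 of the 5 events are the overlapping ones of SR45a. The median difference was -0.767 points. The list was chosen by the study on these samples, so it is not independent evidence of a direction.

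SR34 (Zm00001d040672), an SR-subfamily protein gene, had 10 tested events and none with an unadjusted p under 0.05. Its deepest, retention of a 2233-base intron (chromosome 3, 57179933 to 57182165), had ψ of 60.4%, 62.3% and 55.1% at 35°C MDT and 56.7%, 53.6% and 57.1% at 37°C MDT. The groups overlapped (difference -3.47 points, 95% interval -10.2 to 3.22, FDR 0.695). SCL33 (Zm00001d022243), of the SCL subfamily of SR proteins, had a 105-base exon at 17.4%, 17.5% and 18.6% at 35°C MDT and 26.3%, 24.7% and 34.5% at 37°C MDT. These groups were 6.1 points apart, and the event did not pass the correction over ES events (FDR 0.0884). The deeper of its 2 tested events, a 188-base exon, was at 4.33% ± 0.907 and 3.33% ± 0.451, with overlapping groups (FDR 0.492).

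SRP (Zm00001d051139), which encodes an mRNP protein, had 2 tested events, none with an unadjusted p under 0.05, and a median difference of 5.0 points. The deeper one, a 47-base exon, was near 0, at 3.27% ± 1.37 and 2.83% ± 1.19 (95% interval of the difference -2.17 to 1.31 points). At 31°C MDT the same exon was at 21.8% ± 4.18 and at 33°C at 9.67% ± 1.98. SPFcc1-like (Zm00001d048415) had a 655-base intron at 43.5% ± 6.53 and 39.2% ± 6.06 (FDR 0.72) and a 186-base A3SS segment at 79.8% ± 8.51 and 91.2% ± 6.19, with overlapping groups (FDR 0.543).

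Of 10 other genes named by the study, 7 had tested events, 33 in all. None was called, 4 were higher and 1 lower at an unadjusted p under 0.05 (15.2%, against 11.1% over all events). All 4 higher ones lie in Zm00001d021135, where they form 2 pairs that share their skipping reads. It is a phosphatidylethanolamine-binding (PE-binding) protein gene related to FLOWERING LOCUS T, a carrier of the flowering signal in Arabidopsis. Its 1611-base intron (chromosome 7, 143621435 to 143623045) had ψ of 17.8%, 17.5% and 11% at 35°C MDT and 70.7%, 45.8% and 34.8% at 37°C MDT. The groups were 17 points apart (difference 35 points, 95% interval 18.4 to 51.6, FDR 0.0488), while the spliced isoform had 20 to 24 reads at 35°C MDT and 2, 7 and 10 at 37°C MDT. The other 3 of these 4 events had FDRs from 0.237 to 0.484. The deepest of the 10 tested events of the gene was an A5SS event with a 1214-base segment. It had values in 2 libraries of each MDT, with means of 73.2% and 74.4% (FDR 0.952). At V5 the 1611-base intron was at 21.5% ± 1.82 and 14.3% ± 4.42, and the changes of the stages differed by 42.2 points (FDR 0.0226).

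The PE-binding gene Zm00001d046300 had an intron at 39.6% ± 4.91 and 33.4% ± 5.39 (FDR 0.587). CAU1 (Zm00001d004109), a homolog of a gene needed in Arabidopsis to silence the flowering repressor FLC, had 13 tested events, and its 464-base intron was at 28.1% ± 7.84 and 14.6% ± 3.61 (unadjusted p = 0.00907, quasi-binomial FDR 0.173). The protein kinase genes MAPKKK3 (Zm00001d026511 and Zm00001d025449) and NCRK (Zm00001d014967) and the transcription factor gene NF-YB1 (Zm00001d010574) had no event with an unadjusted p under 0.05. For the deepest event of Zm00001d026511, an MXE event at 74.6% and 74.2%, the 95% interval of the difference ran from -11.6 to 10.8 points. CONSTANS-LIKE9 (Zm00001d045804), HSFTF9 (Zm00001d048041) and the third PE-binding gene, Zm00001d006116, were listed without an event that could be tested.

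A wide difference was no guarantee of a call. After Zm00001d046828, the widest non-overlapping differences with at least 20 reads in every library were a 375-base intron of Zm00001d036334, at 34.5% ± 10.5 and 71.4% ± 19.6 (difference 36.9 points, FDR 0.125), and a 662-base exon of Zm00001d039192, at 83.2% ± 7.74 and 48% ± 14.5 (difference -35.2 points, FDR 0.175). Their SDs were wider than those of the called IR, ES and A5SS events. The called MXE event of Zm00001d003277 had SDs of 13.1 and 10.2. Zm00001d036334 and Zm00001d039192 had 40.3 and 48.3 reads per library on average, against 665 to 1538 in the called IR, ES and A5SS events. The parts of depth and spread were not tested.

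The same step was compared at V5, in separate libraries. There, 66 of 8143 events in 50 genes were called (0.811%), 46 higher and 20 lower at 37°C MDT, with 16 and 18 among IR events, and 1143 had an unadjusted p under 0.05 (14.0%). All 9 events called at V4 were tested at V5, all 9 had a difference of the same sign there, and 4 were called. The called ones are both SR45a events, Zm00001d033378 and Zm00001d019124. The 9 events lie in 7 genes, and those of the same gene share reads or count the same exon, so they are not 9 separate changes. The share of same signs over all events tested at both stages is not given here. Of the 66 events called at V5, 64 were tested at V4, where 42 had the same sign and 27 an unadjusted p under 0.05. The median size of the change of these events was 17.1 points at V5 and 3.85 points at V4. Since the rule picks the larger values of the stage that chose them, these sizes are a description.

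Single events show how far the stages matched. Zm00001d033378 was at 62.2% ± 1.62 and 76.3% ± 3.08 at V5 (difference 14.1 points, FDR 0.00333), and Zm00001d019124 at 43.7% ± 3.79 and 33% ± 1.46 (-10.7 points, FDR 0.00596). For Zm00001d052093 the V5 difference was 7.1 points (95% interval 3.04 to 11.2, FDR 0.0448), against 19.9 at V4 (FDR of the difference between stages 0.0226). For the Zm00001d021396 exon it was -9.2 points (95% interval -12.8 to -5.56, FDR 0.0133), against -27.2 at V4 (FDR of the difference between stages 0.0748).

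**Figure D5:**
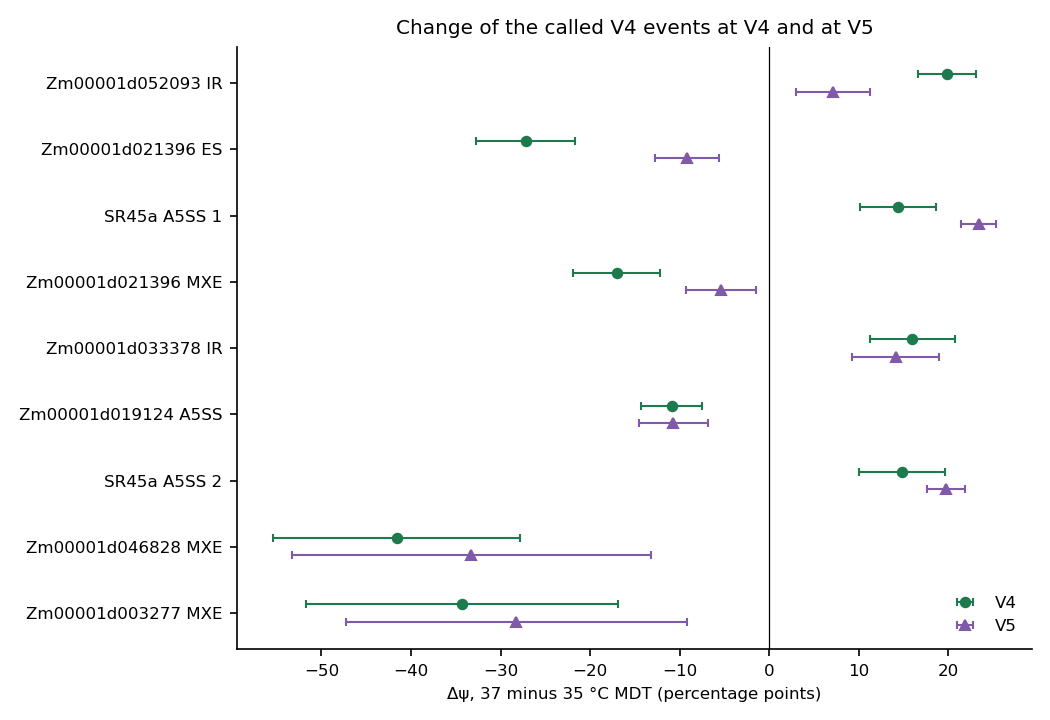
Difference of mean ψ, 37°C minus 35°C MDT, in percentage points (horizontal axis) for the 9 events called at V4, at V4 (circles) and V5 (triangles), with 95% intervals from the quasi-binomial fit. All 9 differences have the same sign at both stages. The 9 events lie in 7 genes, and those of the same gene share reads or count the same exon.

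A test of the difference between the stages called 7 of 5856 events (0.12%). Only the 207-base segment of SR45a was among both these and the events called at V4. Its difference was 14.4 points at V4 and 23.4 points at V5 (95% interval 21.4 to 25.3), from a starting level of 46.5% and 11.4% (Wald test on log odds, FDR 0.00126). Its 210-base counterpart, with the same skipping reads, did not pass this test (difference -4.9 points, FDR 0.0114).

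Some events could not be compared because they had values at 1 MDT only. A value needs at least 1 read of each isoform, and 85 events had one in all 3 libraries at 37°C MDT and in none at 35°C MDT, while 163 had the reverse. The rarer isoform had a median of 2 reads per library in both sets, so most are near the limit of detection. The deepest exception, chosen after its values were seen, is an MXE event of Zm00001d005359 with ψ of 27.7%, 25.5% and 28.1% at 35°C MDT and 1030 reads of its rarer isoform per library. It had no value in any library at 33°C or 37°C MDT. An unlisted event is not a measured absence, and none of these events was counted as a change.

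The libraries had 1899702 to 2818842 reads over all events, and the number of events with a value ranged from 9880 to 10163 at 35°C MDT and from 9256 to 9999 at 37°C MDT. That difference of -480 events did not pass (exact permutation test, p = 0.2) and turned to 135 more at 37°C MDT when each count was divided by the reads of its library, per 1000000 reads (exact p = 0.7). Among the types, ES events with a value numbered 3305 to 3396 at 35°C MDT and 2824 to 3191 at 37°C MDT, without overlap (difference -386, exact p = 0.1, the smallest possible). The totals of 37°C replicate 3 stood furthest from those of its group, with a chi-square per event of 4.6 and 5.64 against the other replicates, compared with 2.05 to 2.18 among the 35°C replicates. Without that library 12 events were called, of which 8 are among the 9. No pair of libraries was alike within sampling noise.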

How the data were processed

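Per the labels and the study's methods, poly(A) RNA of maize W22 leaves was sequenced on a BGISEQ-500, filtered with SOAPnuke, aligned by the authors to the B73 genome with HISAT2 (2.0.4 in the submitters' processing notes, which also name Bowtie2 2.2.5) and searched for AS events with rMATS. The deposited counts are raw reads of both isoforms of an event in each library, without normalization, and the fraction ψ was computed by the authors from length-scaled reads. An event without reads of 1 isoform has no value. By their names, 67 columns matched 1 sample each. Another 5 did not and were left unused, as were 4 repeated heading lines per table. For V4 33°C MDT, ψ was computed from reads and length ratios. Starts in the files count from 0 and are printed from 1, in B73 RefGen_V4. No genome of that build was used, so no sequence is printed, and no gene descriptions matched, so keyword lists of genes were not formed.

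Each event was fitted with a quasi-binomial model in R 4.3.3, with the spread moderated by squeezeVar of limma 3.58.1 and held at 1 or above, and p-values were adjusted by Benjamini-Hochberg within each type. The intervals are 95% intervals from this fit and cover counting error and the moderated spread. That spread borrows from other events, so an interval can be narrower than the SDs of its own event would give. The SR45a 207-base segment at V5 is a case, with SDs of 0.115 and 2.97 and an interval of 21.4 to 25.3 points. No molecular identifiers were used, so reads may repeat a molecule. Nothing states that replicates came from separate chambers, so the spread may miss that of chambers. The stage test added 0.5 to each count. Alternatives were edgeR 4.0.16, limma on log2 ratios, a replicate block, other filters, adjustments and thresholds, and leaving out each library. Summaries used pandas 2.3.3 and numpy 2.4.6 (Python 3.11.15). The method was tested on simulated data.

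Named events are all called ones, then those next in order of p with an FDR of at most 0.05 until 25 genes were reached, the deepest event of each gene the study's text names and any of its events with an unadjusted p under 0.05, and the 3 widest differences. The members and lists were chosen with earlier results of these data known. Gene expression was not analysed here.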

Additional observations from a re-analysis of the deposited data

Results flagged for a closer look

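The test of the difference between stages gave 7 events whose change from 35°C to 37°C MDT was not the same at V4 and V5, with the difference below as V4 minus V5 in percentage points. In 3 introns the sign at V4 was positive and at V5 negative. Retention of a 520-base intron of Zm00001d040979 was 3.5% and 5.43% at V4 but 21.5% and 7.47% at V5 (difference 16, FDR 6.8e-07). A 530-base intron of Zm00001d033797 was at 7.5% and 9.47% at V4 and at 7.67% and 2.1% at V5 (7.53, FDR 3.75e-06). A 1565-base intron of Zm00001d023664 was at 3.33% and 7.87% at V4 and at 12.2% and 6.73% at V5 (10, FDR 0.00346). At V4 these changes are of 1.93, 1.97 and 4.53 points, under the 5 points needed for a call. Their quasi-binomial FDRs at V4 were 0.00802, 0.142 and 0.0475, so the positive sign is uncertain for Zm00001d033797.

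In another 3 events the V4 FDRs were 0.531, 0.889 and 0.337. The V5 change was called in these 3 as in the introns above. A 134-base exon of Zm00001d027756 was at 66.8% ± 1.83 and 62.9% ± 5.31 at V4 and at 22.3% ± 0.458 and 68.1% ± 2.04 at V5 (difference -49.8, FDR 1.32e-06). A 243-base intron of Zm00001d017522 was at 23.3% and 22.4% at V4 and at 3.73% and 16.4% at V5 (-13.6, FDR 0.00313). A 305-base intron of Zm00001d019948 was at 15.8% and 20.2% at V4 and at 1.9% and 17.2% at V5 (-10.9, FDR 0.00346). That last call was lost when any 1 of the V5 35°C replicates was left out, with FDRs up to 0.0145. In each of these 3 the level at 37°C MDT was nearer between the stages than that at 35°C MDT.

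The SR45a (Zm00001d047847) A5SS event with the 207-base segment rose at both stages, by 9 points less at V4 (difference -9, FDR 0.00126).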

How the results depend on the processing

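The count of 9 called V4 events was 1 with edgeR, 0 with limma on log2 ratios, 15 with the spread taken over the 33°C, 35°C and 37°C libraries, 31 with a value required in all 3 libraries of each group, 1 with at least 1 library a group, 2 with the adjustment over all types together and 35 at an FDR of 0.05. Other filters, no floor on the spread and a threshold of 10 points gave 9 to 12. Of the 15 with the 33°C libraries included, 7 are among the 9, and the MXE events of Zm00001d046828 and Zm00001d003277 were lost. Leaving out each library gave 4 to 18 events, with 4 without 35°C replicate 3 (3 of them among the 9), and 14 and 18 without 37°C replicates 1 and 2. At V5 the count of 66 ran from 45 to 69, and that of the stage test from 6 to 10. The replicate numbers did not pair the libraries, with correlations of -0.0317, 0.0269 and -0.00249 between same-numbered libraries over 2279 events of at least 50 reads, and with them as a replicate block the counts were 48 at V4 and 206 at V5. Events per library reversed to 135 when divided by the reads. Among named events, 2 without a call changed sign when a library was left out, the event Zm00001d051139 ES with a range of -1.22 to 0.0333 points and the event Zm00001d026511 MXE with -3.52 to 4.48 points. The mean ψ differences of IR, ES, A3SS and A5SS events kept their sign under all alternatives run, with ES at 0.802 and A3SS at -0.748 points when reads were pooled over events. The causes of these shifts were not tested. Of the 9 calls, 1 has under 100 reads.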
